A study of Rattus norvegicus with 12 samples.

Results

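Endothelial marker genes and the water channel gene Aqp1 were followed in cultured rat atrial fibroblasts. A total of 10 genes, namely Aqp1 and the markers Pecam1, Cdh5, Kdr, Tie1, Tek, Vwf, Emcn, Egfl7 and Esam, were taken by symbol from the 22850 features of the read count and FPKM tables. Aqp1 was chosen by its measured rise with HNG, so its values in that treatment are described without a test. The 9 markers were set beside it as textbook genes of endothelial cells, with results of these libraries already known.

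The cells came from the atria of Sprague-Dawley rats 1 to 3 days old and were separated from myocytes by their early attachment to the dish, with no sort against other attached cells. All 12 libraries were made from cells that received 1 μmol/L angiotensin II (AngII), a peptide hormone that activates fibroblasts, for 48 h in medium with 2% serum. A total of 4 libraries received AngII alone, 4 were pretreated for 1 h with 10 μmol/L HNG, an analogue of the mitochondrial peptide humanin (AngII+HNG), and 4 were pretreated for 1 h with 5 μmol/L of the mitochondrial peptide MOTS-c (AngII+MOTS-c). No group without AngII was analysed here, so the comparisons ask how each peptide changed gene expression on top of AngII. The study describes the libraries of a treatment as biological replicates and as independent samples, and neither it nor the labels say whether each came from its own cell isolation. The p-values therefore measure the spread between these libraries.

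Endothelial cells line blood vessels and the inner surface of the heart. They sense the growth factor VEGF through receptors such as Kdr and the angiopoietins through the receptor Tek with its partner Tie1, they hold to each other through junction proteins such as Cdh5, Pecam1 and Esam, and they store von Willebrand factor for clotting. Aqp1 forms a water pore that is abundant in the endothelium of many vessels, in red blood cells and in the kidney, and it is also made by other cell types, fibroblasts among them.

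The promoters of genes that were higher with HNG are shown because they are the stretches from which transcription of these genes starts. RefSeq windows of the GRCr8 rat build matched 5 of the 10 genes, with 2 windows for Egfl7, and the 250 bases before each start site were read. No window was found for Tek, which was also higher with HNG, nor for Cdh5, Pecam1, Vwf and Esam. Capitals mark AGGAAG or its reverse complement CTTCCT, a form of the site recognized by transcription factors of the ETS family, many of which act in endothelial cells. Other forms of that site were not searched or marked. The 4 sequences below run 5′ to 3′ in the direction of the gene, and that of Egfl7 belongs to its upstream start site.
Aqp1, chr4:85812534-85812783, plus strand: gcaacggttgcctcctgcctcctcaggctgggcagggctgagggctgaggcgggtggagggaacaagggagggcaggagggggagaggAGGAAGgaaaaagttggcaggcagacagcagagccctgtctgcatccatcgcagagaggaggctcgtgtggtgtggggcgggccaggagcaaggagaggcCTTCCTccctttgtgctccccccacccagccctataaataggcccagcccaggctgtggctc
Kdr, chr14:32571813-32572062, plus strand: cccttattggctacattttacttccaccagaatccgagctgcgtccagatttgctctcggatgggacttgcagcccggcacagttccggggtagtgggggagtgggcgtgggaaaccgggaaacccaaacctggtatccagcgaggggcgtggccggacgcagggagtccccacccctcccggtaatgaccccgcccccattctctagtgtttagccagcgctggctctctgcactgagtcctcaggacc
Tie1, chr5:137304982-137305231, minus strand: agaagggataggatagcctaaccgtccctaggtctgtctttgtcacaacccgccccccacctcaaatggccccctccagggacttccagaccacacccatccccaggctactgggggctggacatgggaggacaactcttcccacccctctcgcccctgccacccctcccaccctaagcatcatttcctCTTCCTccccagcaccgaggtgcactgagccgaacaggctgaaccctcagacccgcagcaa
Egfl7, chr3:29805381-29805630, plus strand: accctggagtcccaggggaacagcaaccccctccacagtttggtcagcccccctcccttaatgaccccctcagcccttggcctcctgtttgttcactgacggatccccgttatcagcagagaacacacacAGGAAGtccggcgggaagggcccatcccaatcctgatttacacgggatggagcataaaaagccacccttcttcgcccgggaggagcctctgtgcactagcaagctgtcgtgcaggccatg

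The 6 letters AGGAAG occurred on either strand in 29.5% of 33469 RefSeq windows of this length. The Aqp1 promoter held 2 copies, starting 162 and 62 bases before the start site, that of Tie1 held 1 copy 61 bases before it, and that of Egfl7 held 1 copy 120 bases before it. No copy of these 6 letters was found in the Kdr window, which does not speak to other forms of the ETS site. The letters TATAAA, read on either strand, stood 30 bases before the start of Aqp1 and in 12.9% of all windows. They were not found in the windows of the other members. The letters CACCC, which many Krüppel-like factors recognize, were found on either strand in 49.2% of all windows, with 4 copies in that of Tie1, 2 in that of Aqp1 and 1 each in that of Kdr and in the Egfl7 window shown. The downstream window of Egfl7 held 2 copies of CACCC and none of AGGAAG. Emcn, whose window is not shown, held 2 copies of AGGAAG and none of CACCC. These matches describe letters in the reference and say nothing of binding in the cells.

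The libraries held 27960586 to 38322354 counts on genes. At this depth 3 counts amounted to 0.0783 to 0.107 on the CPM scale, on which each count is divided by the scaled library total. This floor reflects counting error alone. Pairs of libraries of one treatment differed by a chi-square per gene of 4.30 to 18.5, where sampling noise alone gives about 1, so no library was a resequencing of another. AngII+HNG replicate 3 stood apart, with 13.7 to 18.5 against its partners and 5.14 to 8.56 among the other 3. To a lesser degree so did replicate 4 with AngII, at 7.53 to 8.29 against 4.30 to 5.28 among the other 3. With MOTS-c replicate 4 was at 7.59 to 8.65, against 4.56 to 6.87 among the other 3. Replicates 2 and 3 of each treatment carry one number in their library names, and differed by 4.30 with AngII, 13.7 with HNG and 6.56 with MOTS-c. What this shared number stands for is not stated, and the 4 libraries of a treatment were counted as separate replicates. Fibroblast genes, which define the labeled cell type, were abundant in all libraries, with summed levels of 60642 to 68590 CPM for 11 of them, such as the collagen gene Col1a1 at 22833 to 26770 CPM, an example picked for its high level. Genes of cardiomyocytes were also present, with sums of 6048 to 7975 CPM for 13 of them.

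Endothelial markers were detected in all 12 libraries at low to middling levels. On the FPKM scale, which divides by gene length, Aqp1 led with a mean of 42.6 ± 14.2 (SD, n = 12), at percentile 91.0. Percentiles were taken over all features with any count, including those too low for the test. Tek followed with 5.10 ± 0.765 FPKM at percentile 53.7, then Egfl7 with 4.18 FPKM and Cdh5 with 3.95 FPKM. Tie1 had 3.13, Pecam1 3.07, Esam 2.72 and Kdr 1.62 FPKM. Vwf with 0.865 and Emcn with 0.741 FPKM came last, the latter from 27 to 51 counts per library. The mean FPKM of Aqp1 was 8.35 times that of Tek, and its lowest value lay 4.21 times above the highest of any marker. Egfl7 was above Cdh5 in 9 of 12 libraries, Tie1 above Pecam1 in 6 of 12 and Vwf above Emcn in 9 of 12, and these 3 pairs differed by less than their spread. The gap between Pecam1 and Esam was also within the larger SD of the pair, although Pecam1 was higher in 12 of 12 libraries. Tie1 averaged above Pecam1 with HNG (3.82 and 3.29 FPKM) but below it with AngII (2.83 and 2.95) and MOTS-c (2.73 and 2.98).

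In the comparison of AngII+HNG with AngII, 4 of the 9 markers rose, namely the angiopoietin receptor Tek, its partner Tie1, the VEGF receptor Kdr and the secreted vessel factor Egfl7, each by 1.31- to 1.35-fold. None fell. Aqp1 averaged 166 CPM against 96.2 CPM, which is 1.73 times as much. Among all 14524 genes tested, 3.40% were called higher and 2.58% lower, 5.98% in all, at an adjusted p below 0.05 in edgeR's quasi-likelihood test. The log2 fold change was above 0 for 8 of the 9 markers and for 51.3% of all genes, with medians of 0.25 and 0.0043. A total of 5 markers had higher values in all 4 AngII+HNG libraries than in any AngII library, as did 6.87% of all genes, and 5 had an unadjusted p below 0.05, as did 20.3% of all genes. In bulk RNA, more cells of a type and more RNA per cell cannot be told apart.

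**Figure D1:**
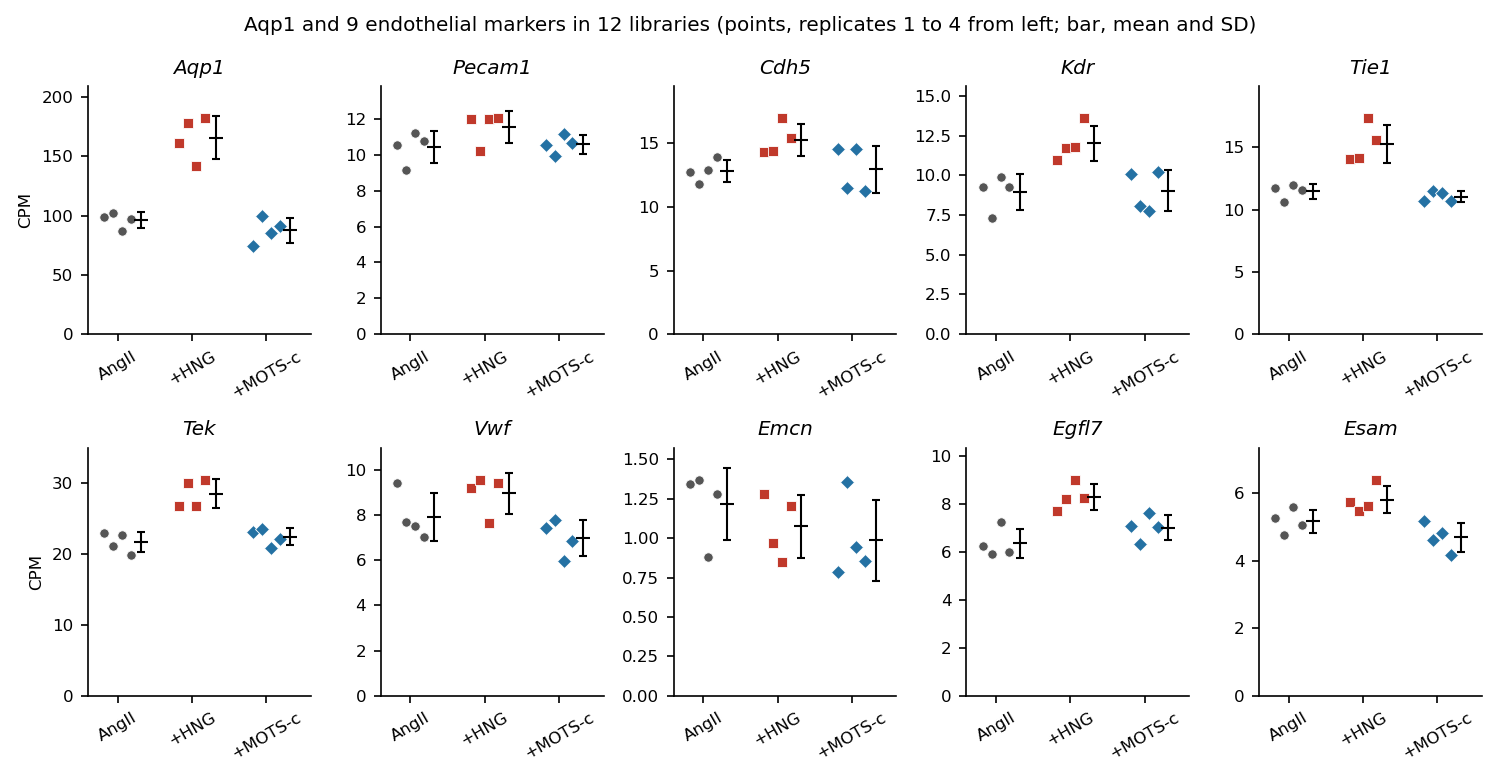
CPM of Aqp1 and the 9 markers (vertical axes from 0, a scale for each gene) in the AngII, AngII+HNG and AngII+MOTS-c libraries, with points for replicates 1 to 4 and a black bar for the mean and SD of 4. The 4 AngII+HNG libraries lie above all AngII libraries for Aqp1, Cdh5, Kdr, Tie1, Tek and Egfl7, and the groups overlap for Pecam1, Vwf, Emcn and Esam.

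Tek encodes Tie2, the receptor of the angiopoietins. It was measured at 22.9, 21.2, 22.7 and 19.9 CPM in the AngII libraries and at 26.8, 30.1, 26.8 and 30.5 CPM with HNG. The MOTS-c libraries held 23.2, 23.6, 20.9 and 22.1 CPM. The HNG libraries stood above all others, and the AngII and MOTS-c libraries lay among each other. Tek rose with HNG by 0.40 ± 0.0654 (log2 fold change ± SE, adjusted p = 0.00347) against AngII and by 0.35 ± 0.0645 (adjusted p = 0.00907) against MOTS-c. The call against AngII held in all 19 alternative analyses (adjusted p of 1.02e-05 to 0.0255). The call against MOTS-c held in 18 of 19 and was lost without replicate 4 of both groups (0.31, adjusted p = 0.0619).

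Tie1, the receptor that pairs with Tie2 and binds no angiopoietin strongly by itself, was likewise highest with HNG. The AngII libraries had 11.7, 10.6, 12.0 and 11.6 CPM, and the HNG libraries 14.1, 14.1, 17.3 and 15.6 CPM. With MOTS-c it was at 10.7, 11.5, 11.3 and 10.7 CPM. No HNG library overlapped either other group, and replicate 3 was the highest. Tie1 rose by 0.42 ± 0.0832 on the log2 scale against AngII (adjusted p = 0.0103) and by 0.47 ± 0.0832 against MOTS-c (adjusted p = 0.00679). Without the AngII+HNG replicate 3 that stood apart, the change against AngII was 0.35 (adjusted p = 0.0157). Without replicate 4 of both groups it was 0.41 with an adjusted p of 0.0549, the only one of 19 alternatives that lost this call.

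Among genes that act on these receptors, Angpt2 passed the test and Angpt1 and Ptprb did not. Angpt2, which can block Tie2, fell by 0.31 ± 0.0733 on the log2 scale with HNG, from 15.7 ± 1.32 to 12.6 ± 0.31 CPM (SD, n = 4, adjusted p = 0.0254). Angpt1, which activates Tie2, averaged 28.1 CPM with AngII and 32.8 CPM with HNG (0.23 ± 0.0745, adjusted p = 0.0999). Ptprb, a phosphatase that acts on Tie2, averaged 4.57 and 4.36 CPM (adjusted p = 0.844). These 3 genes were picked after their values were seen.

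Kdr encodes VEGFR2, the main signaling receptor for VEGF in endothelium. Its values were 9.28, 7.31, 9.89 and 9.24 CPM with AngII, and 10.9, 11.7, 11.8 and 13.6 CPM with HNG. With MOTS-c they were 10.1, 8.08, 7.74 and 10.2 CPM. The HNG libraries lay above the others without overlap, while the MOTS-c libraries formed a lower and a higher pair. Kdr rose by 0.43 ± 0.104 on the log2 scale against AngII (adjusted p = 0.0275). Against MOTS-c the difference was 0.41 ± 0.109 with an adjusted p of 0.0522, past the threshold in 6 of 19 alternatives, among them the omission of AngII+MOTS-c replicate 4 (0.48, adjusted p = 0.0388). The call against AngII was lost in 7 of 19 alternatives, among them the omission of AngII replicate 1 (adjusted p = 0.0686), AngII replicate 2 (0.0766), AngII+HNG replicate 2 (0.0565) or AngII+HNG replicate 4 (0.0796).

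Among the other VEGF receptors, coreceptors and ligands, 2 rose and 2 fell with HNG against AngII, and Vegfa, Vegfd, Pgf, Flt4 and Nrp1 did not pass the test. Flt1, a VEGF receptor that also acts as a decoy, fell with HNG from 55.6 ± 1.93 to 44.7 ± 2.26 CPM (log2 fold change -0.31 ± 0.0496, adjusted p = 0.00298). The coreceptor Nrp2 rose from 95.6 ± 4.85 to 126 ± 7.28 CPM (0.40 ± 0.0499, adjusted p = 0.000662). The ligand Vegfb rose from 39.8 to 45.3 CPM (0.19 ± 0.0477, adjusted p = 0.0332), and the lymphatic ligand Vegfc fell from 74.9 to 65.0 CPM (-0.20 ± 0.0453, adjusted p = 0.0199). Vegfa, the main ligand of Kdr, averaged 232 and 241 CPM (adjusted p = 0.544). Flt4, the receptor of Vegfc, averaged 12.8 and 10.9 CPM (adjusted p = 0.142). Vegfc, Vegfa, Vegfd, Pgf, Flt4 and Nrp1 were named after their values were seen.

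Among the junction genes, Cdh5, which encodes VE-cadherin of the endothelial adherens junction, was at 12.8, 11.8, 12.9 and 13.9 CPM with AngII and at 14.3, 14.4, 17.0 and 15.4 CPM with HNG. The MOTS-c libraries held 14.6, 11.5, 14.5 and 11.2 CPM. The HNG and AngII libraries did not overlap. The MOTS-c libraries either reached into the HNG range or lay below all AngII libraries. The log2 fold change against AngII was 0.25 ± 0.0793 with an adjusted p of 0.0859, and Cdh5 passed the threshold in none of 19 alternatives (adjusted p of 0.0566 to 0.226). Its fold of 1.19 had a 95% interval of 1.07 to 1.33 before adjustment.

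Pecam1 (CD31), an adhesion molecule of endothelial contacts that leukocytes and platelets also carry, was at 10.5, 9.14, 11.2 and 10.8 CPM with AngII. With HNG it was at 12.0, 10.2, 12.0 and 12.0 CPM, and with MOTS-c at 10.6, 9.92, 11.2 and 10.7 CPM. Replicate 2 was the lowest in each treatment, and all groups overlapped. The fold against AngII was 1.11 (95% interval 0.985 to 1.26, adjusted p = 0.373).

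Esam, an adhesion molecule of endothelial tight junctions, was at 5.26, 4.77, 5.60 and 5.05 CPM with AngII. The HNG libraries held 5.75, 5.48, 5.62 and 6.40 CPM and the MOTS-c libraries 5.18, 4.61, 4.83 and 4.17 CPM. The HNG libraries overlapped AngII and stood above MOTS-c without overlap. The fold was 1.13 against AngII (95% interval 0.987 to 1.29, adjusted p = 0.357) and 1.24 against MOTS-c (1.07 to 1.43, adjusted p = 0.128).

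Egfl7, a factor that endothelial cells secrete into the matrix around growing vessels and whose gene also hosts a microRNA, was at 6.23, 5.91, 7.24 and 6.01 CPM with AngII. With HNG it was at 7.70, 8.19, 9.0 and 8.22 CPM, and with MOTS-c at 7.07, 6.32, 7.60 and 7.01 CPM. All HNG libraries lay above all others, with MOTS-c replicate 3 just below the lowest of them. Egfl7 rose by 0.39 ± 0.0966 on the log2 scale against AngII (adjusted p = 0.0322), and its difference of 0.24 ± 0.0915 against MOTS-c had an adjusted p of 0.161. The call against AngII was lost in 8 of 19 alternatives, among them the omission of AngII replicate 1 (adjusted p = 0.0977), 2 (0.109) or 4 (0.0816), of AngII+HNG replicate 2 (0.0666), 3 (0.0636) or 4 (0.0633), and the sum of replicates 2 and 3 (0.0515).

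Vwf encodes von Willebrand factor, the platelet adhesion protein that endothelium stores. Its values were 9.44, 7.71, 7.51 and 7.02 CPM with AngII, 9.23, 9.58, 7.64 and 9.46 CPM with HNG, and 7.44, 7.79, 5.95 and 6.86 CPM with MOTS-c. All groups overlapped, since AngII replicate 1 was among the high libraries and AngII+HNG replicate 3 among the low ones. The difference against AngII was 0.18 ± 0.110 (adjusted p = 0.388) and that against MOTS-c 0.35 ± 0.107 (adjusted p = 0.0867). Against MOTS-c, Vwf passed the threshold in 2 of 19 alternatives (adjusted p of 0.0292 to 0.252), among them the omission of AngII+HNG replicate 3 (0.42, adjusted p = 0.0389).

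Emcn, which encodes the sialomucin endomucin of veins and capillaries, was the only marker with a mean below that of AngII in the HNG libraries. It was at 1.34, 1.37, 0.882 and 1.28 CPM with AngII and at 1.28, 0.971, 0.846 and 1.21 CPM with HNG. With MOTS-c it was at 0.782, 1.36, 0.946 and 0.858 CPM. The groups overlapped widely. The fold against AngII was 0.880 (95% interval 0.659 to 1.18, adjusted p = 0.699).

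**Figure D2:**
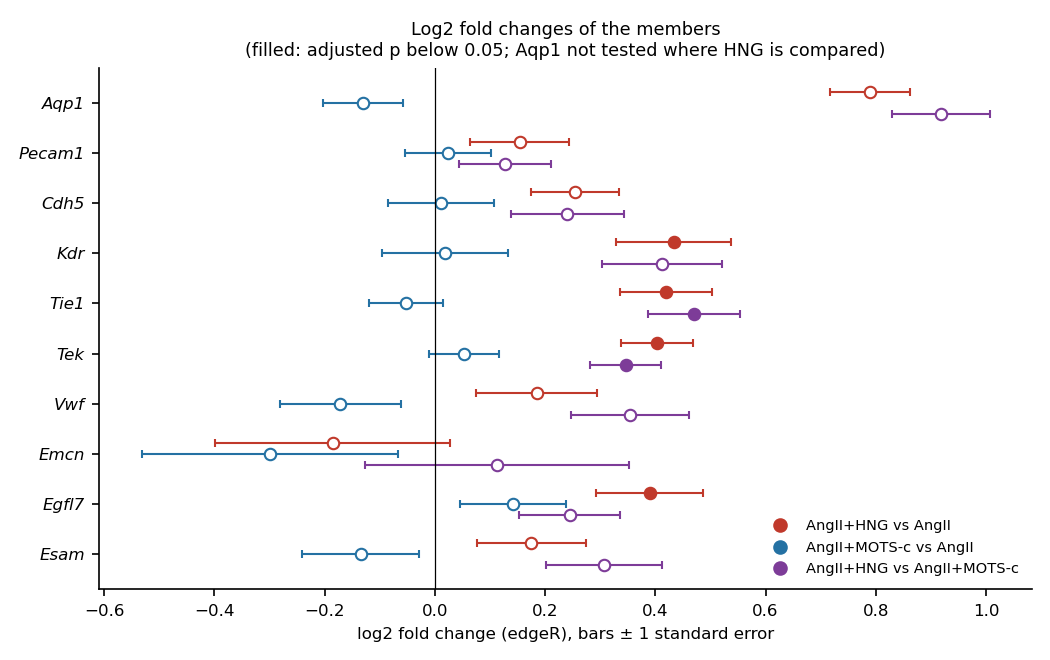
Log2 fold changes (horizontal axis, edgeR) of the 10 genes in the 3 comparisons, with bars of 1 SE and filled points for an adjusted p below 0.05. Tek and Tie1 are filled against both AngII and MOTS-c, Kdr and Egfl7 against AngII, and every AngII+MOTS-c vs AngII point lies between -0.30 and 0.14.

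Aqp1 was at 98.9, 102, 87.0 and 97.0 CPM in the AngII libraries and at 161, 178, 142 and 182 CPM in the HNG libraries. In the MOTS-c libraries it was at 74.6, 99.9, 85.7 and 90.9 CPM. The lowest HNG library, replicate 3, lay well above the highest of the other 8 libraries, AngII replicate 2, and the AngII and MOTS-c libraries overlapped. On the log2 scale Aqp1 was 0.79 ± 0.0729 higher with HNG than with AngII, and 0.92 ± 0.0887 higher than with MOTS-c. These differences chose the gene and carry no test. Over the 19 alternatives the first ranged from 0.74 to 0.86, and without replicate 3 it was 0.86. Against AngII, MOTS-c gave a fold of 0.913 (95% interval 0.827 to 1.01, adjusted p = 0.924).

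No other aquaporin gene reached 1 CPM in any library. Of 11 other aquaporin genes in the tables, Aqp2, Aqp8 and Aqp12a had 0 counts in all 12 libraries. Only Aqp4, at 0.151 to 0.637 CPM, and Aqp11, at 0.0700 to 0.483 CPM, had enough counts for the test with AngII+HNG and AngII, and neither was called (adjusted p = 0.808 and 0.771). In a list of genes for water, ion and volume transport, such as the Na-K-Cl cotransporter Slc12a2 and the volume-regulated channel subunit Lrrc8a, 29 genes were tested and 0 were called in any of the 3 comparisons. Their median log2 fold change with HNG against AngII was -0.0039, against 0.0043 over all genes. These aquaporins, Slc12a2 and Lrrc8a were named after their values were seen.

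In the comparison of AngII+MOTS-c with AngII, none of the 9 markers and not Aqp1 passed the test. Over 14488 genes 1 was called, which is 0.0069%, and it was Trim15 (1.04 and 2.56 CPM, adjusted p = 0.014), named here after its value was seen. Of the markers 0 had an unadjusted p below 0.05, against 5.05% of all genes, and DESeq2 called 0 as well. All 10 genes overlapped between the groups, while 3.41% of all genes did not. The log2 fold change was above 0 for 5 markers and for 49.6% of all genes, with a median of 0.011 over the markers, and Cdh5, Kdr and Pecam1 among these 5 turned below 0 in some alternatives. Tek had a fold of 1.04 (95% interval 0.952 to 1.13), Tie1 of 0.964 (0.880 to 1.06), Kdr of 1.01 (0.868 to 1.18) and Egfl7 of 1.10 (0.969 to 1.26). The intervals of Tek, Tie1, Kdr and Egfl7 did not reach the folds of 1.32, 1.34, 1.35 and 1.31 that these genes had with HNG. Vwf had a fold of 0.888 (0.765 to 1.03) and Esam of 0.911 (0.789 to 1.05).

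Both peptides were compared with the same AngII libraries, so these results share their controls, and the peptides were also compared with each other. Tie1 and Tek rose in AngII+HNG against AngII+MOTS-c, which makes 2 of 9 markers, and 0 fell. Over 14448 genes 2.64% were called higher and 1.77% lower, 4.41% in all. The log2 fold change was above 0 for 9 of 9 markers, with a median of 0.31, and for 50.6% of all genes, although Emcn turned below 0 without replicate 4 of both groups (-0.012). The groups did not overlap for Kdr, Tie1, Tek, Egfl7 and Esam, 5 of 9 markers against 6.37% of genes, and 7 markers had an unadjusted p below 0.05 against 19.3% of genes. The peptides were given at different doses, 10 and 5 μmol/L.

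The summed level of the 9 markers was highest with HNG. It was 79.8 to 89.9 CPM with AngII (86.0 ± 4.72, SD, n = 4), 102 to 112 CPM with HNG (107 ± 4.46) and 83.8 to 89.6 CPM with MOTS-c (85.7 ± 2.59). The HNG libraries did not overlap the others. Sums of the 3 other endothelial lists described below were not highest with HNG. Aqp1 differed between treatments by more than the marker sum. Its CPM divided by that of the marker sum was 0.969 to 1.28 with AngII, 1.31 to 1.70 with HNG and 0.833 to 1.18 with MOTS-c. The lowest HNG ratio, 1.31 in replicate 3, lay close to the highest AngII ratio, 1.28 in replicate 2. These sums and ratios are descriptions, since Aqp1 entered by its rise.

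**Figure D3:**
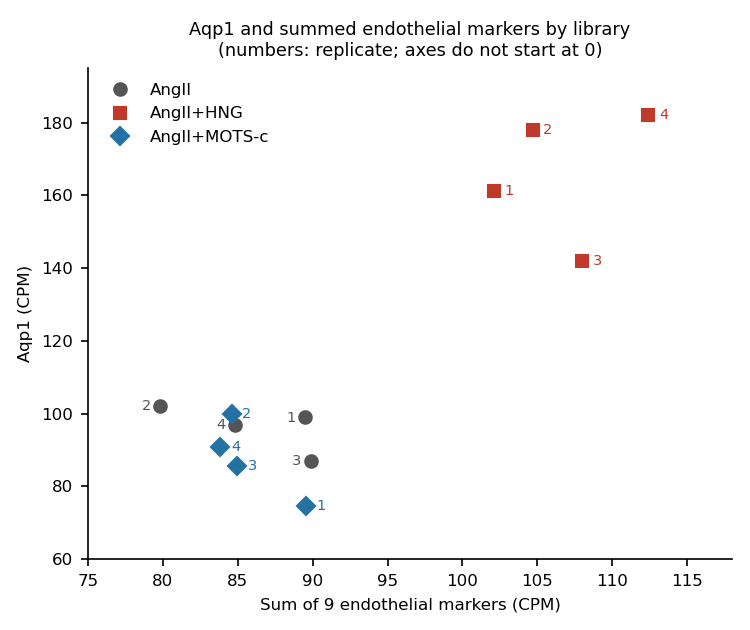
Aqp1 (vertical axis, CPM) against the sum of the 9 endothelial markers (horizontal axis, CPM) in 12 libraries, with replicate numbers and axes that do not start at 0. The AngII+HNG libraries lie apart from the other 8 on both axes, and AngII+HNG replicate 3 is the lowest of its treatment in Aqp1 (142 CPM) but not in the marker sum.

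Over all 12 libraries, log2 CPM of the 9 markers correlated with that of Aqp1 at a median r of 0.65, from 0.24 to 0.88 for Tek, which includes the gap between HNG and the rest. Within treatments the values were different. Deviations of log2 CPM from the treatment means, taken over the same libraries, correlated with those of Aqp1 at a median r of -0.33 over the 9 markers, from -0.68 for Cdh5 to 0.76 for Emcn, and were above 0 for 3 of 9. Among the 36 pairs of markers the median of such deviations was 0.19, with 22 above 0, from -0.84 for Emcn and Egfl7 to 0.78 for Tek and Vwf. These values are descriptions over libraries that share their treatments and depth, with 4 libraries per treatment.

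The genes most like Aqp1 over all 12 libraries, by Pearson correlation of log2 CPM among 12372 genes, were Glb1l (r = 0.987), Cd34 (0.979), Mmp2 (0.967), Ctsa (0.964) and C1r (0.962). Cd34, a surface sialomucin of endothelial and stromal progenitor cells, went from 23.2 with AngII to 44.1 with HNG and 20.9 CPM with MOTS-c on average. Mmp2, a gelatinase of the matrix, went from 953 to 1174 and 913 CPM, and the lysosomal enzyme Ctsa from 333 to 394 and 329 CPM. None of the 9 markers was among the 50 genes most like Aqp1, although 6 had an r above 0.5 to it, and 1 was among the 50 most like the mean of the markers. The genes most like the mean of the markers were Pltp (r = 0.955), Tmem178a (0.953), Matn4 (0.952), Sirpa (0.952) and Fmod (0.943). The libraries fall apart into HNG and the rest, and these correlations include that gap. By Spearman correlation or by deviations from the treatment means, 0 of the 5 genes most like Aqp1 were the same.

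Other endothelial genes were called in both directions. Of 106 listed genes in 3 lists, 99 were tested for HNG against AngII, 8 were called higher and 14 lower (22.2%, against 5.98% of all genes), and their median log2 fold change was 0.025. Against MOTS-c 7 of 100 were higher and 10 lower (17.0%, against 4.41% of all genes). For MOTS-c against AngII 0 of 98 were called. Several of the listed genes, such as Mcam at 407 CPM and Jag1 at 277 CPM in the AngII libraries, are also known from pericytes or fibroblasts. The junction and surface genes summed to 1922 to 1987 CPM with AngII and to 1818 to 1889 CPM with HNG, without overlap. With overlap between the groups, receptors and ligands averaged 3085 and 3015 CPM and transcription factors 1197 and 1149 CPM.

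Among receptors and ligands 3 of 39 rose and 6 fell with HNG against AngII, with a median log2 fold change of -0.021. The Notch ligand Jag1 fell by 0.42 ± 0.0532 on the log2 scale (adjusted p = 0.000766) and the sphingosine phosphate receptor S1pr3 by 0.37 ± 0.0506 (adjusted p = 0.00121). Angptl2, a secreted angiopoietin-like protein, rose by 0.21 ± 0.0514 (adjusted p = 0.0279).

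Among junction and surface genes 4 of 34 rose and 3 fell, with a median log2 fold change of 0.12. Cd34 rose by 0.93 ± 0.0624 (adjusted p = 7.42e-06), the fatty acid carrier Fabp4 of capillary endothelium by 0.54 ± 0.0986 (adjusted p = 0.00638), and the urokinase gene Plau by 0.44 ± 0.0987 (adjusted p = 0.0187). The adhesion molecule Mcam fell by 0.38 ± 0.0581 (adjusted p = 0.00227), the endothelial lectin Clec14a by 0.42 ± 0.0853 (adjusted p = 0.012) and Arhgap29 by 0.18 ± 0.0371 (adjusted p = 0.014). The levels of other genes of capillary and barrier endothelium varied. The tight junction gene Cldn5 was at 0.213 to 1.66 CPM, and Gpihbp1, the lipase anchor of capillaries, had 0 counts in 11 of 12 libraries, whereas the fatty acid transporter Cd36 averaged 6.13 CPM over the 12 libraries, as did Fabp4. Cd93 averaged 45.8 and 39.9 CPM (adjusted p = 0.337) and Plvap, of fenestrated endothelium, 8.62 and 7.65 CPM (adjusted p = 0.395). Cldn5, Gpihbp1, Cd36, Cd93 and Plvap were named after their values were seen.

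Among transcription factors 1 of 26 rose and 5 fell, with a median log2 fold change of 0.057. The flow-responsive factor Klf4 rose by 0.37 ± 0.047 (adjusted p = 0.000736). Ets1, of the family with a form of its site marked in the promoters above, fell by 0.30 ± 0.0372 (adjusted p = 0.000662), from 190 ± 5.78 to 154 ± 3.89 CPM. The venous factor Nr2f2 fell by 0.40 ± 0.0563 (adjusted p = 0.00148), Foxc2 by 0.37 ± 0.0616 (adjusted p = 0.00382), the hypoxia factor Epas1 by 0.24 ± 0.0474 (adjusted p = 0.0104) and the Notch target Hey2 by 0.24 ± 0.0579 (adjusted p = 0.0289). Erg, an ETS factor largely restricted to endothelium, averaged 3.84 and 3.10 CPM (adjusted p = 0.191). Fli1, a related factor of endothelial and blood cells, averaged 15.8 and 17.9 CPM (adjusted p = 0.0986). Sox17 averaged 3.14 and 3.37 CPM (adjusted p = 0.754). Erg, Fli1 and Sox17 were named after their values were seen.

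**Figure D4:**
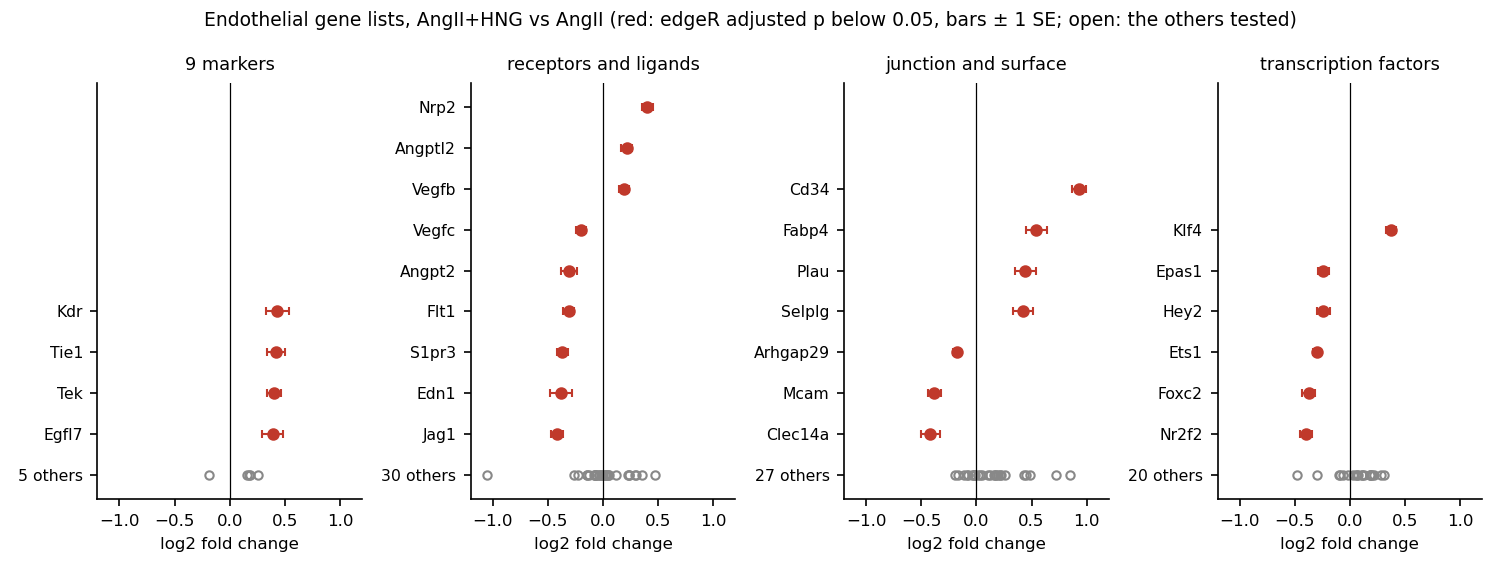
Log2 fold changes of AngII+HNG vs AngII (horizontal axes) in the 9 markers and 3 other endothelial lists, with red points and bars of 1 SE for genes with an adjusted p below 0.05 and open points in 1 row for the others tested. All 4 called markers lie above 0, whereas 6 of 9 called receptors and ligands, 3 of 7 junction and surface genes and 5 of 6 transcription factors lie below 0.

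Markers of some other cell types moved with HNG against AngII, for which 5.98% of all genes were called. Summed levels of 15 macrophage genes were 280 to 338 CPM with AngII, 377 to 488 CPM with HNG and 277 to 333 CPM with MOTS-c, with replicate 4 the highest in each treatment. Lyz2 held the largest part of these sums, with a mean of 126 CPM over the 12 libraries. Of 13 tested, 4 rose with HNG against AngII (30.8%), namely Lyz2 (0.75 ± 0.0803, adjusted p = 0.000262), Cd68, Mrc1 and Ptprc, and 0 fell. The log2 fold change was above 0 for 10 of the 13 and below 0 for 3. Cd74 and Cd163, named after their values were seen, had at most 0.281 and 0.548 CPM. Pecam1 is also carried by macrophages. Without replicate 4 the macrophage sums were 280 to 291 CPM with AngII and 377 to 432 CPM with HNG, and the marker sums 79.8 to 89.9 and 102 to 108 CPM. The part of these cells in the values of the markers and of Aqp1 was not tested.

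The summed level of 13 smooth muscle and pericyte genes was 8974 to 9175 CPM with AngII, 7400 to 7740 CPM with HNG and 8447 to 9112 CPM with MOTS-c. Of these 7 fell with HNG against AngII and 0 rose (53.8%, against 5.98% of all genes), among them Cnn1 (-0.41 ± 0.0385, adjusted p = 0.000126), Notch3 (-0.38 ± 0.0409, adjusted p = 0.000262) and Acta2 (-0.29 ± 0.0367, adjusted p = 0.000727), genes that activated fibroblasts also express. Of 11 fibroblast genes Tcf21 (0.28 ± 0.0524, adjusted p = 0.00746) and Thy1 (0.17 ± 0.0388, adjusted p = 0.022) rose, which is 18.2%. Summed levels of 13 cardiomyocyte genes were 6589 to 7444 CPM with AngII, 6834 to 7975 CPM with HNG and 6048 to 7871 CPM with MOTS-c, and Tnni3 alone of them rose with HNG against AngII. Only Upk1b rose among 11 epicardial and mesothelial genes, and 0 of 8 Schwann cell genes were called. The shares called of cardiomyocyte genes (7.69%) and of epicardial and mesothelial genes (9.09%) lay near that of all genes. Erythroid genes summed to 1.31 to 2.34 CPM, with Ahsp, a chaperone of alpha globin, at 0.240 to 0.787 CPM. The globin genes Hbb and Hba-a1 had 0 counts in all 12 libraries, and Hba-a2 had 0 in 3 libraries and up to 0.187 CPM in the others. These 4 were picked once their levels had been seen.

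**Figure D5:**
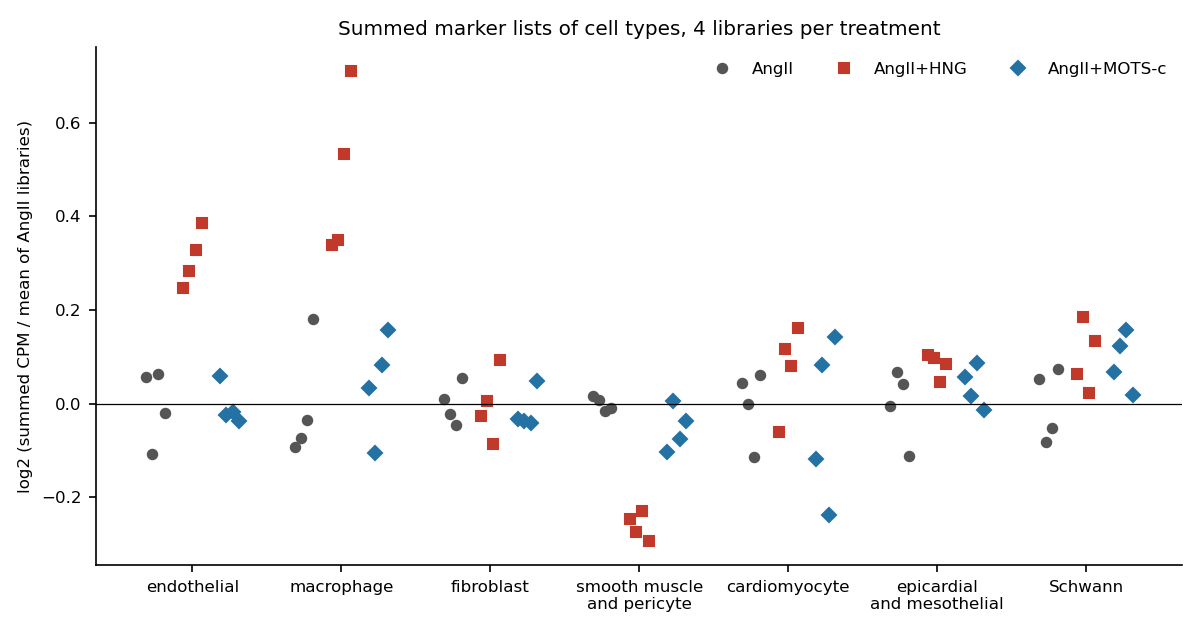
Summed CPM of marker lists for 7 cell types in each library, as log2 of the ratio to the mean of the 4 AngII libraries (vertical axis), with 4 points per treatment. The AngII+HNG libraries lie above all others in the endothelial and macrophage lists and below all others in the smooth muscle and pericyte list.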

How the data were processed

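Total RNA of cultured cells was made into 12 mRNA libraries and sequenced as paired-end reads on a DNBSEQ platform. The authors deposited unnormalized whole-number read counts per gene. They also deposited FPKM values, scaled by gene length and library size. The submitters' processing notes name HISAT2, Picard 1.41 and SAMtools 0.1.18. The genome build, strand setting and counting tool are not given in the sources used here. Treatments and replicate numbers were taken from the sample titles, and doses and times from the study's methods.

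The count table was fitted with edgeR 4.0.16 (R 4.3.3), with the 8 libraries of the groups compared in each fit, using filterByExpr, TMM scaling, glmQLFit and glmQLFTest, and p-values were adjusted by Benjamini-Hochberg over all genes tested, with a threshold of 0.05. Standard errors were derived from the F statistic, 95% intervals are unadjusted, and CPM used TMM-scaled totals. The code was tested on simulated counts with 200 changed genes. All 10 members passed the filter. They and the 15 other gene lists were chosen with earlier results of these data known, so their counts are not independent support, and Aqp1, chosen by its rise with HNG, was tested only between MOTS-c and AngII.

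The text names all members and, from each other list, at most 6 genes called in any of the 3 comparisons, ranked by the smallest of their adjusted p-values over these comparisons. It also names the 5 genes most like Aqp1 and most like the mean of the markers, over 12 libraries by Pearson correlation of log2 CPM (prior count 2), among genes that averaged 1 CPM or more. Other genes are said to be named after their values were seen. Symbols of all 10 members were found in RefSeq, and 4 genes of other lists were found there under the names Ca3, Ca4, Ca9 and Ca12.

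The 19 alternatives per comparison were DESeq2 1.42.0, RLE size factors, no filter, 10 or more counts required in each library, a single fit of all 12 libraries, a replicate block by title number or by library-name number, the sum of replicates 2 and 3, limma 3.58.1 on log2 of FPKM plus 1 or plus 0.1, and the omission of single libraries or of replicate 4 from both groups.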

Additional observations from a re-analysis of the deposited data

Results flagged for a closer look

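AngII+HNG replicate 2 stood apart from the other 3 libraries of its treatment in Pecam1, at 10.2 CPM against 12.0, 12.0 and 12.0 CPM. The gap took up 0.973 of the range of the group, above Dixon's 95% critical value for 4 samples. It was 1 of 30 sets of 4 libraries examined, 10 genes in 3 treatments, and chance alone singles out about 1 in 20 such sets. Replicate 2 was also the lowest library for Pecam1 in the other treatments, at 9.14 CPM with AngII and 9.92 CPM with MOTS-c.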

How the results depend on the processing

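Against AngII, HNG gave 431 to 1191 called genes over 19 alternatives (869 in the analysis as reported), with 577 when replicates 2 and 3 were summed, 541 without replicate 4 of both groups, and 431 to 932 with single libraries left out. From 1 to 4 markers were called, 2 to 4 with single libraries left out and 1 without replicate 4 of both groups, which left Tek. Against MOTS-c, HNG gave 1034 called genes with DESeq2, 975 with all 12 libraries in one fit, 377 without replicate 4 of both groups and 322 to 625 with single libraries left out (637 as reported), with 2 to 3 markers when single libraries were left out and 1 without replicate 4 of both groups. Between MOTS-c and AngII, 4 genes were called with DESeq2, 0 with all 12 libraries, 0 with replicates 2 and 3 summed, 0 without replicate 4 of both groups and 0 to 3 with single libraries left out (1 as reported), and no member in any of the 19. Signs turned only for genes that were not called. Between MOTS-c and AngII, Cdh5 (0.011) was at -0.012 with replicates 2 and 3 summed, at -0.017 and -0.022 with limma on FPKM plus 1 and plus 0.1, and at -0.052 to 0.073 with single libraries left out, Kdr (0.019) at -0.029 without replicate 4 of both groups and at -0.066 to 0.082 with single libraries left out, and Pecam1 (0.023) at -0.034 to 0.059 in the same way. Between HNG and MOTS-c, Emcn (0.11) was at -0.012 without replicate 4 of both groups. The log2 ratio of the marker sums, HNG to AngII, stayed between 0.28 and 0.34 in 11 alternatives of scaling, unit and members.

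The replicate numbers of the titles are shared by the treatments. Deviations of same-numbered libraries from their treatment means correlated at -0.0757 to 0.136 for HNG and AngII, at -4.32e-05 to 0.119 for MOTS-c and AngII and at -0.0138 to 0.212 for HNG and MOTS-c, and 1, 2 and 2 of 4 pairs correlated best with their own number. The numbers were not taken as pairs. This count asked only for the same title number, although replicates 2 and 3 share a library-name number, so it cannot decide whether libraries were paired. With the replicate block by title number, 1111, 2 and 1054 genes were called in the 3 comparisons, with the same 4 markers against AngII and with Kdr and Vwf added between HNG and MOTS-c, which makes 4. With the replicate block by library-name number, 1113, 1 and 485 genes were called, Cdh5 was at -0.056 and Kdr at -0.024 between MOTS-c and AngII, and Emcn at -0.074 between HNG and MOTS-c. AngII+MOTS-c replicate 1 has another library-name number than replicate 1 of the other treatments, so in both comparisons with MOTS-c these libraries had no partner in this block and the values rest on replicates 2 to 4. The depth limits Emcn, at 27 to 51 counts per library. The cause of these differences between alternatives was not tested.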

Other observations

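Lists of endothelial subtype markers held 5 to 13 genes that could be tested for HNG against AngII. The share called was 33.3% of endocardial and capillary, 20% of lymphatic and 15.4% of arterial and venous genes, against 5.98% of all genes, with median log2 fold changes of 0.17, 0.18 and 0.17 against 0.0043. With AngII and HNG, summed levels averaged 404 and 433 CPM for endocardial and capillary genes and 138 and 152 CPM for lymphatic genes. Arterial and venous genes averaged 302 and 283 CPM. Among 9 endocardial and capillary genes tested for HNG against AngII, 3 rose and 0 fell, namely Fabp4, the natriuretic peptide receptor Npr3 of endocardium (79.5 to 94.6 CPM, log2 fold change 0.26 ± 0.056, adjusted p = 0.0174 in edgeR's quasi-likelihood test) and Cytl1 (0.240 to 0.832 CPM, adjusted p = 0.0394). Of 12 genes in this list Ca4, a carbonic anhydrase of capillaries, had 0 counts in all 12 libraries and was named after this was seen. Among 5 lymphatic genes tested 1 rose, Pdpn (117 to 132 CPM, 0.18 ± 0.0441, adjusted p = 0.0346), a gene that fibroblasts also express.

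Among 13 arterial and venous genes, Gja5, the connexin of arterial endothelium and atrial myocytes, rose from 14.1 ± 0.952 to 19.8 ± 2.48 CPM (SD, n = 4, 0.50 ± 0.0895, adjusted p = 0.00603), and the venous factor Nr2f2 fell. For MOTS-c against AngII 0 genes of these 3 lists were called. Between HNG and MOTS-c, Fabp4 (4.54 and 8.20 CPM, adjusted p = 0.000638) and Pdpn (adjusted p = 0.0265) were higher with HNG, and Efnb2, an arterial ligand (64.9 and 57.1 CPM, adjusted p = 0.0209), was lower. Of 13 arterial and venous genes tested between these treatments 0 were called higher, Gja5 included, and 2 lower, Efnb2 among them. Between the same treatments Ednrb, an endothelin receptor, was named after its value was seen and rose from 7.23 to 11 CPM (0.60 ± 0.127, adjusted p = 0.017). With HNG against AngII its ligand gene Edn1, also named after its value was seen, fell from 51.9 to 39.7 CPM (adjusted p = 0.0473).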
